A study of Mus musculus with 24 samples.

Results

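The T cell receptor complex and the first signalling proteins that act on it were followed through 9 genes, taken by name from a deposited table of 22009 named genes: the CD3 chains Cd3d, Cd3e, Cd3g and Cd247, the coreceptor Cd4, the kinases Lck and Zap70, and the adaptors Lat and Lcp2. All 9 were present and far above 1 RPKM in every library. RPKM scales the reads of a gene to the length of its transcript and to the mapped reads of the library, so levels of different genes can be set side by side. The RNA came from CD4+ T cells of the spleen of wildtype C57BL/6 adult mice. The cells were a pool from several animals, per the legends of the study. The time course had 20 libraries, of which 2 held resting, unstimulated cells. The other 18 were Th0, Th1 or Th2 cultures, each sequenced once at 4, 8, 12, 16, 20 and 24 h. All cultures received anti-CD3e and anti-CD28, which was the whole of the Th0 condition. Th1 cultures had anti-IL-4 and recombinant IL-12 in addition, and Th2 cultures had recombinant IL-4 with anti-IFNG and anti-IL-12. A further 4 libraries came from cells that had been stimulated for 16 h and then kept with actinomycin, which blocks transcription, for 0, 1, 2 or 4 h. The only replicates of one state were the 2 resting libraries, for which the labels name no separate mice, so p-values measure the spread between libraries. The names of the 2 resting libraries hold a tag that differs from the tag of all 18 cultures, and its meaning is not given. In the changes from rest, a difference that goes with this tag cannot be told apart from stimulation.

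The T cell receptor has short cytoplasmic tails and signals through the CD3 chains that surround it, of which Cd247 encodes the zeta chain with the most phosphorylation motifs. The coreceptor CD4 carries the kinase LCK to the engaged receptor, LCK phosphorylates the CD3 and zeta tails, and the kinase ZAP-70 docks there and phosphorylates the adaptors LAT and SLP-76, the product of Lcp2. These adaptors gather phospholipase, exchange factors and other enzymes into the complex from which calcium, Ras and NF-kB signalling start. The receptor is the target of the anti-CD3e antibody used in all the cultures.

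Cd3d, Cd3e and Cd3g lie together on chromosome 9. Per the GENCODE annotation of GRCm38, Cd3g (chr9:44969572-44980431, minus strand) and Cd3d (chr9:44981786-44987339, plus strand) are divergent, with a distance of 1355 bases between their 5′ ends, and Cd3e follows at chr9:44998740-45009627 on the minus strand. The 3 genes span 40056 bases, while Cd247 is on chromosome 1 (chr1:165788681-165877277, plus strand) and overlaps the protein-coding gene Pou2f1 of the opposite strand. Whether reads were counted by strand was not given in the sources used here, so reads from such overlapping genes cannot be told apart. The promoters of the CD3 chains are shown because 3 of the genes share 1 locus and the zeta gene lies apart. A link between these sequences and the courses after stimulation was not tested. Of the 9 genes, 8 matched a RefSeq promoter (GRCm38.p6), with 11 promoters in all, and the sequences below give the 250 bases before the RefSeq start of each CD3 gene, 5′ to 3′ on the gene's strand. For Cd3e this start lies inside the GENCODE gene, so the end of the printed stretch does too. Capitals mark CAGGAAGT or its reverse complement ACTTCCTG, a short sequence with the GGAA core bound by ETS factors that was chosen after the promoters were seen.

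Cd3g (chr9:44980432-44980681, minus strand): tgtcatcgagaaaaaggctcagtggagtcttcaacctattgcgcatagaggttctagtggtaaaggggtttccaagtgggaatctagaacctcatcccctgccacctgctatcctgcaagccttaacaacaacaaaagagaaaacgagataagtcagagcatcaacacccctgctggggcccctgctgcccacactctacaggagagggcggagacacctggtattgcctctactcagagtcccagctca
Cd3d (chr9:44981536-44981785, plus strand): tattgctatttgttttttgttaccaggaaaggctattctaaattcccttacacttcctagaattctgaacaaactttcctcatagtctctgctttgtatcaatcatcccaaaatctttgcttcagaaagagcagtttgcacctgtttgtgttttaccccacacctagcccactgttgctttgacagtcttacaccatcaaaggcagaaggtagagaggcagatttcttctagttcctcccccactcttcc
Cd3e (chr9:45009612-45009861, minus strand): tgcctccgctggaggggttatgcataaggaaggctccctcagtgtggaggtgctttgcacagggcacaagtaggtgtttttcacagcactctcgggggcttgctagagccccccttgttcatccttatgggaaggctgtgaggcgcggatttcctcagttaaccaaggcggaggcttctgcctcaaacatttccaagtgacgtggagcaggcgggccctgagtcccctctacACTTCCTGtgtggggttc
Cd247 (chr1:165788431-165788680, plus strand): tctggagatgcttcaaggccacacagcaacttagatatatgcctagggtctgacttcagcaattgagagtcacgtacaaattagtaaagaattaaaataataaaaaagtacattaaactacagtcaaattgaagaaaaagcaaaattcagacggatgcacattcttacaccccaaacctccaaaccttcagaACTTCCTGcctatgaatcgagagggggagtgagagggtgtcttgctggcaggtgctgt

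On either strand and in the window from 250 bases before to 50 bases after the start, this sequence was in 3.33% of 32851 promoters. The Cd3e promoter held 1 match, which began at position -18 from the RefSeq start. The Cd247 promoter held 2, at positions -58 and 21, the latter past the stretch printed. Each of the 2 Lck promoters held 1, at positions -11 and -115. Those of Cd3d, Cd3g, Zap70, Lat and Lcp2 had 0 matches of these letters. The letters TATAAA, on either strand, were in 0 of the 11 promoters and in 13.6% of all. Cd3d and Cd247 had GC contents of 42.3% and 43.7%, lower than the 54% of Cd3g, the 56.7% of Cd3e and the median of 52.7% over all promoters.

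The libraries held between 17512385 and 33017133 mapped reads, as recovered from the steps of the RPKM values. Whole reads could be recovered in all 24 libraries for Cd3d (3293 to 7141 reads), Cd3e (3716 to 7767), Zap70 (2790 to 11837) and Lat (6961 to 13808). In resting replicate 1 the 5793 reads of Cd3d gave a 95% Poisson interval of 216 to 227 RPKM around the value of 222, an interval that covers counting error only. The summed level of 8 T cell genes, among them the CD3 chains and Cd4, was 1347 to 2080 RPKM in the time course. Since that sum includes genes followed here, it is no separate check of the label of CD4+ T cells. The CD8 genes Cd8a and Cd8b1 summed to 6.59 to 15.7 RPKM. Markers of other cells moved with stimulation. The sum of 8 macrophage and monocyte genes, none of them at 0 in all libraries, was 563 and 584 RPKM in resting cells, 46.3 to 77.8 at 4 h and 8.05 to 12.5 at 24 h. The sum of 7 B cell genes was 71.3 and 81.5 RPKM in resting cells and 9.98 to 19.0 at 24 h. That of 5 NK cell genes was 55.2 and 56.2 RPKM in resting cells and 19.8 to 30.7 at 24 h. Haemoglobin genes took 6.25% and 6.86% of the summed RPKM in resting cells, 4.99% to 7.36% at 4 h and 0.0233% to 0.0333% at 24 h. The part of these cells in the changes from rest was not tested, beyond a rescaling without the haemoglobin genes. In such bulk libraries, fewer cells of a type and less RNA per cell cannot be told apart.

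**Figure D1:**
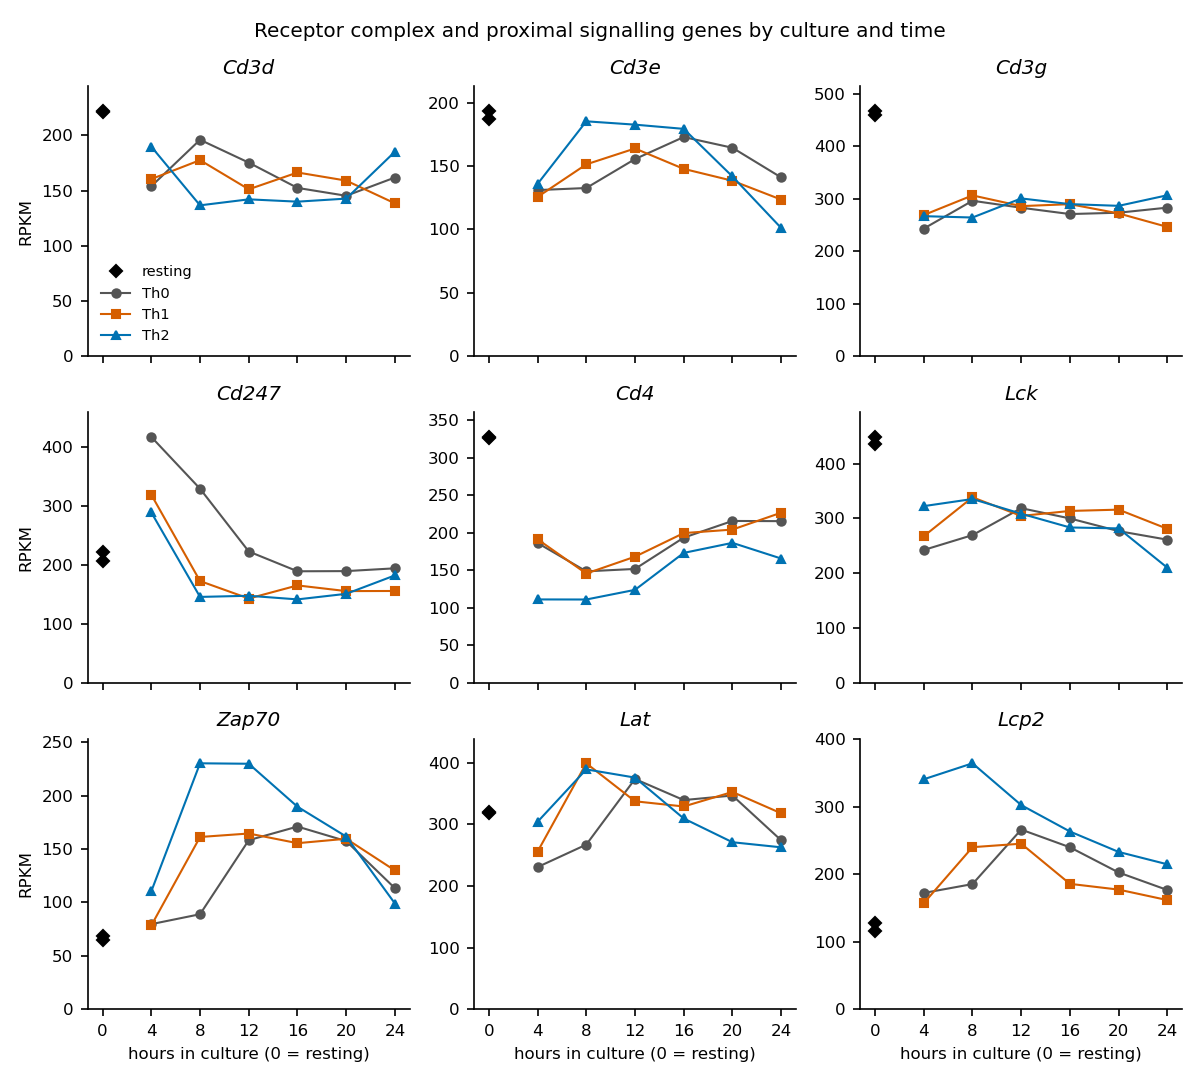
RPKM (linear axes from 0) of the 9 genes against hours in culture, with black diamonds for the 2 resting libraries at 0 and 1 point per library for Th0 (grey circles), Th1 (orange squares) and Th2 (blue triangles). Cd3d, Cd3e, Cd3g, Cd4 and Lck lie below both resting libraries in all 18 cultures, and Zap70 and Lcp2 lie above both in all 18. The share of all genes that separate in this way was not counted.

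The chains of the CD3 locus were lower in stimulated than in resting cells. Cd3g, which pairs with the epsilon chain, was at 468 and 460 RPKM in resting cells. In cultures it lay between 243 (Th0 at 4 h) and 307 (Th2 at 24 h) with a median of 283, a range of 1.26-fold that was the smallest of the 9 genes. The resting and cultured libraries did not overlap for this gene. The share of all genes that separate from rest in this way was not counted, here or for the genes below. Its log2 change from rest was -0.84 (SE 0.10) at 4 h, with an adjusted p of 1.15e-05 in limma's test over all genes, and -0.74 (SE 0.10) at 24 h, with an adjusted p of 1.08e-05. Cd3d, the delta chain, was at 222 RPKM in both resting libraries and between 137 (Th2 at 8 h) and 196 (Th0 at 8 h) in cultures. The groups again did not overlap, and the log2 change passed the test at 8 to 24 h, where it was -0.40 to -0.57 (SE 0.15). At 4 h the change in Cd3d was -0.41 with an adjusted p of 0.0534. The Cd3d call at 8 h (adjusted p = 0.0396) was lost in 6 of 14 alternatives, with 0.133 without resting replicate 1, 0.139 without resting replicate 2, 0.0983 without the Th1 cultures and 0.0807 without the Th2 cultures, and that at 12 h (0.00871) was lost without the Th1 cultures (0.0531) or with median-of-ratios scaling (0.0564).

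Cd3e, which encodes the epsilon chain, was lowest at 4 and 24 h and nearer to its resting level between them. It was at 187 and 194 RPKM in resting cells and at 131, 126 and 136 in the Th0, Th1 and Th2 cultures at 4 h. In Th2 cultures Cd3e was then at 185, 183 and 179 RPKM at 8, 12 and 16 h, followed by 142 and 101 at 20 and 24 h. Th2 cultures at 8 h and 24 h therefore held the highest and the lowest level of Cd3e among the 18 cultures. The log2 change from rest was -0.54 (SE 0.15, adjusted p = 0.011 in limma) at 4 h and -0.65 (adjusted p = 0.00115) at 24 h, and it was -0.30, -0.19 and -0.20 at 8, 12 and 16 h, with adjusted p of 0.11 to 0.288. With quantile normalization these 3 changes were -0.45, -0.43 and -0.45 and all were called (adjusted p of 0.00858 to 0.0105), and without the Th2 cultures the change at 8 h was -0.42 (adjusted p = 0.0123). The call at 4 h was lost without resting replicate 1 (adjusted p = 0.0586), without resting replicate 2 (0.0837) or without the Th1 cultures (0.1). At 20 h the change in Cd3e was -0.36 (adjusted p = 0.0425), and it missed the threshold without either resting library (0.109 and 0.16) or without the Th1 cultures (0.197), with median-of-ratios scaling (0.115) or with no filter on low genes (0.0504). The Cd3d change at 24 h (-0.46, adjusted p = 0.0141) likewise missed it without resting replicate 1 (0.0626), resting replicate 2 (0.066) or the Th1 cultures (0.132), or with median-of-ratios scaling (0.104). Calls for Cd3g held in all 14 alternatives at each of 4, 8, 12 and 24 h.

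Cd247 was highest at 4 h in all 3 conditions. The zeta chain gene was at 206 and 222 RPKM in resting cells and at 417, 319 and 289 RPKM in the Th0, Th1 and Th2 cultures at 4 h. All 3 cultures were then above both resting libraries. In Th0 cultures Cd247 was at 329, 222, 189, 189 and 194 RPKM from 8 to 24 h. In Th1 cultures it was at 172, 143, 165, 155 and 156 RPKM and in Th2 cultures at 145, 147, 141, 151 and 182 RPKM over the same times. The Th1 and Th2 libraries had thus gone below rest by 8 h, while the Th0 library was still above it. The log2 change from rest was 0.65 (SE 0.27, adjusted p = 0.0767) at 4 h and between -0.38 and -0.08 later, with adjusted p of 0.227 to 0.82 from 8 to 24 h. The change at 4 h was called with median-of-ratios scaling (adjusted p = 0.0449), from the resting and 4 h libraries alone (0.0333) and without the Th0 cultures (0.50, adjusted p = 0.015). Without the Th0 cultures Cd247 was also called lower at each later time, at -0.43, -0.56, -0.49, -0.48 and -0.35 from 8 to 24 h, with adjusted p of 0.00362 to 0.038. From the resting libraries and those of 1 time alone it was called lower at 16 h (adjusted p = 0.038) and 20 h (0.0192). Within the cultures Cd247 fell by 0.93 on the log2 scale from 4 to 24 h (SE 0.15, adjusted p = 4.35e-05), a call that held in all 11 alternatives.

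Cd4, the coreceptor for MHC class II, had the largest falls of the 9 genes from 4 to 16 h. It was at 328 and 326 RPKM in resting cells. In Th0 cultures Cd4 was at 186, 148, 152, 193, 216 and 215 RPKM from 4 to 24 h, and in Th1 cultures at 191, 146, 168, 199, 204 and 227 RPKM. In Th2 cultures it was at 111, 111, 124, 173, 186 and 165 RPKM. All 18 cultures were below both resting libraries, and the Th2 library was the lowest of the 3 at each of the 6 times. The change in Cd4 passed the test with at least a 2-fold fall at 4 h (-1.04, SE 0.21, adjusted p = 0.00104), 8 h (-1.28, adjusted p = 0.000103) and 12 h (-1.15, adjusted p = 0.00017). Without the Th2 cultures the change at 4 h was -0.79, and with median-of-ratios scaling -0.97, both called but under 2-fold. The changes at 16, 20 and 24 h passed the test at smaller sizes of -0.79, -0.69 and -0.70. Cd4 rose by 0.34 on the log2 scale from 4 to 24 h within the cultures (SE 0.11, adjusted p = 0.0122). Without the Th1 cultures that adjusted p was 0.0577, without the Th2 cultures 0.0546 and with quantile normalization 0.268.

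Against resting cells, the kinases of the receptor moved in opposite directions. Lck, which starts the cascade, was at 435 and 449 RPKM in resting cells and between 210 (Th2 at 24 h) and 339 (Th1 at 8 h) in cultures. No culture reached the resting level of Lck, and its log2 change passed the test at every time, from -0.50 (SE 0.14, adjusted p = 0.00704) at 8 h to -0.83 (adjusted p = 7.71e-05) at 24 h. Without resting replicate 2 the change at 8 h had an adjusted p of 0.054. Zap70, the kinase recruited next, was at 64.8 and 68.9 RPKM in resting cells, the lowest of the 9 genes. In Th0 cultures it was at 79.6, 88.9, 158, 171, 157 and 113 RPKM from 4 to 24 h, and in Th1 cultures at 78.3, 161, 164, 155, 160 and 130 RPKM. In Th2 cultures it was at 110, 230, 230, 190, 162 and 98.9 RPKM. Each of the 18 cultures was above both resting libraries, with the highest levels in Th2 cultures at 8 and 12 h. The change in Zap70 was 0.40 (SE 0.27, adjusted p = 0.291) at 4 h and at least 2-fold at 8 h (1.15, adjusted p = 0.00241), 12 h (1.44, adjusted p = 0.000289), 16 h (1.35) and 20 h (1.25). From the resting and 8 h libraries alone, the adjusted p at 8 h was 0.0646. Leaving out the Th2 cultures put the 8 h change at 0.84 (adjusted p = 0.00561), called but under 2-fold. At 24 h it was 0.76 (adjusted p = 0.0227). Without resting replicate 1, resting replicate 2 or the Th1 cultures the adjusted p at 24 h was 0.104, 0.0706 and 0.139, and with quantile normalization it was 0.0717.

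Of the adaptors, Lcp2 rose and Lat did not pass the test in either direction. Lcp2, the gene of SLP-76, was at 115 and 128 RPKM in resting cells. In Th0 cultures it was at 172, 185, 266, 240, 202 and 176 RPKM from 4 to 24 h, and in Th1 cultures at 157, 240, 245, 186, 177 and 162 RPKM. In Th2 cultures it was at 341, 364, 302, 263, 233 and 215 RPKM. Both resting libraries were below all 18 cultures, and the Th2 library was the highest at each time. The change in Lcp2 was at least 2-fold at 8 h (1.06, SE 0.29, adjusted p = 0.00618) and 12 h (1.15, adjusted p = 0.00257). It was 0.79 at 4 h (adjusted p = 0.0471), 0.90 at 16 h (0.0131) and 0.74 at 20 h (0.0339), and 0.59 at 24 h with an adjusted p of 0.0823. The call at 4 h was lost in 9 of 14 alternatives, among them the fits without resting replicate 1 (0.218), resting replicate 2 (0.131), the Th0 cultures (0.0605) or the Th1 cultures (0.0626). At 8 h and 16 h the adjusted p was 0.0531 and 0.0826 without resting replicate 1, and at 20 h it was 0.15, 0.0821, 0.0795 and 0.0551 without resting replicate 1, resting replicate 2, the Th0 cultures or the Th1 cultures. The call at 20 h was also lost with quantile normalization (0.48, adjusted p = 0.129), without the haemoglobin genes (0.0619) or with no filter on low genes (0.0502). The changes at 8 and 12 h were 0.93 and 0.93 with quantile normalization, and that at 8 h was 0.80 without the Th2 cultures, all called at under 2-fold. The change at 24 h was called with median-of-ratios scaling (0.73, adjusted p = 0.0428), without the Th2 cultures (0.48, adjusted p = 0.0149) and from the resting and 24 h libraries alone (0.00922). Lat was at 319 and 320 RPKM in resting cells and between 231 (Th0 at 4 h) and 399 (Th1 at 8 h) in cultures, with 9 cultures above and 9 below both resting libraries. Its log2 change ran from -0.29 (SE 0.17) at 4 h to 0.18 at 12 h, with adjusted p of 0.205 to 0.965.

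**Figure D2:**
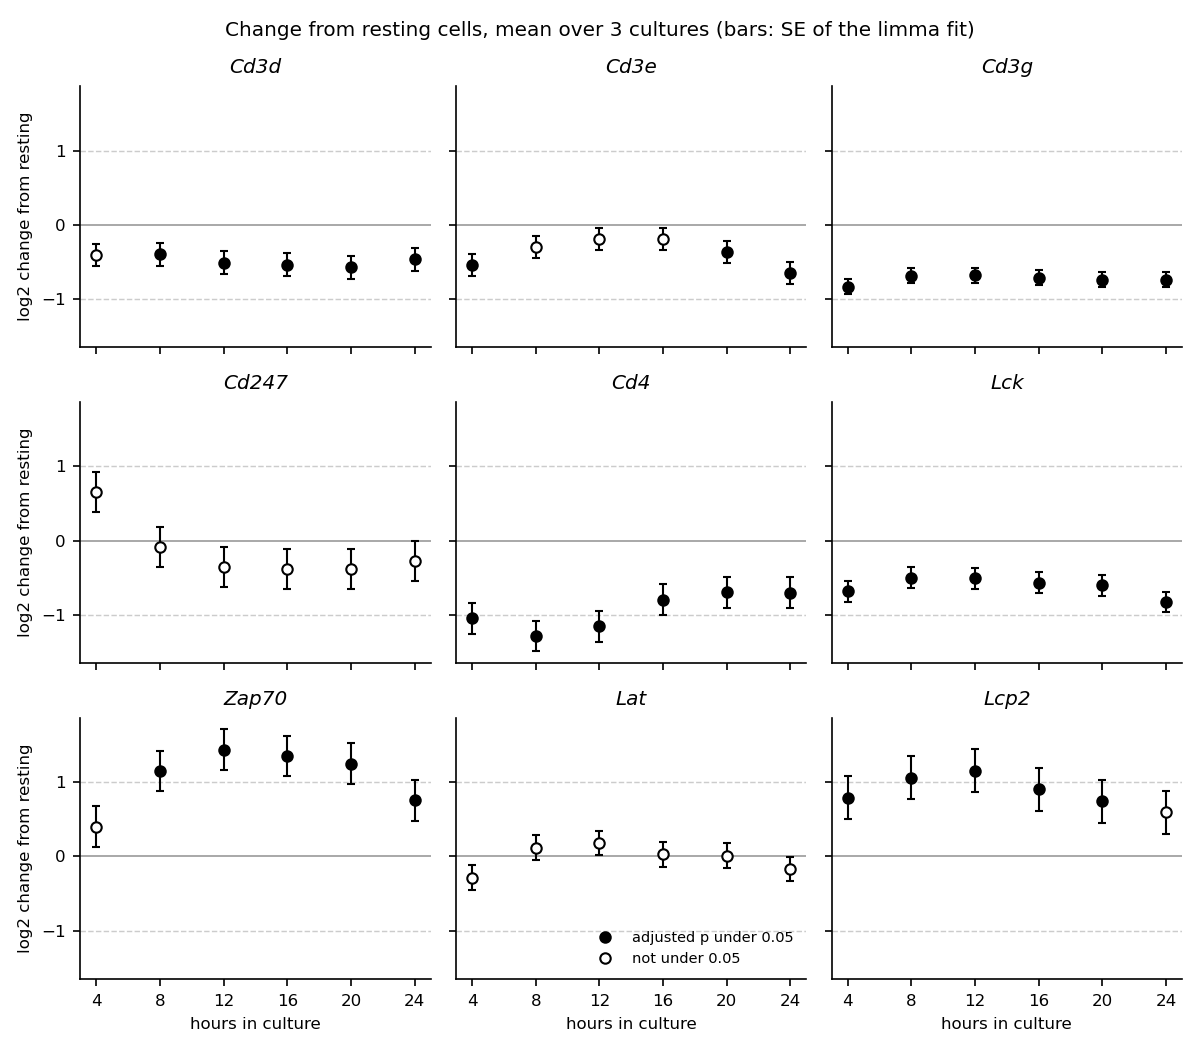
Log2 change from resting cells for each gene at 6 times, as the mean over the 3 cultures against the mean of the 2 resting libraries, with bars for the standard error (SE) of the limma fit and dashed lines at a 2-fold change. Filled points passed an adjusted p of 0.05: Cd4 passes the lower dashed line at 4, 8 and 12 h, and Zap70 lies above the upper one from 8 to 20 h.

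The counts of called genes were set against the shares over all genes. At 4 h, 4 of the 9 fell and 1 rose at an adjusted p under 0.05, against 20.2% and 11.5% of the 10897 genes tested, and 1 of the 9 passed the 2-fold call against 10.6%. At 8 h the counts were 4, 2 and 3, against 27.9%, 22.5% and 18.9%. At 12 h they were again 4, 2 and 3, against 32.5%, 28.9% and 27.1%. At 16 h they were 4, 2 and 1, against 29.4%, 30.3% and 25.7%, and at 20 h 5, 2 and 1, against 31.7%, 32.1% and 29%. At 24 h 5 fell and 1 rose, against 33.6% and 31.6%, and 0 of 9 passed the 2-fold call in limma, against 30.1% of genes, although 6 had an unadjusted p under 0.05. The median log2 change of the 9 genes was -0.41 at 4 h and -0.46 at 24 h, beside -0.04 and -0.04 over all genes tested. From 4 to 24 h within the cultures, 2 of the 9 changed against 69.9% of 10737 genes (1 fell and 1 rose, against 34.5% and 35.3%), and 0 by 2-fold against 26.3%, with 2 at an unadjusted p under 0.05. The comparisons with rest share the 2 resting libraries, so they are not independent of each other.

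The order of the levels changed with stimulation. In resting cells it was Cd3g (464 ± 5.76 RPKM, SD, n = 2), Lck (442 ± 9.44), Cd4 (327 ± 1.11), Lat (319 ± 0.273), Cd3d (222 ± 0.612), Cd247 (214 ± 11.6), Cd3e (190 ± 4.88), Lcp2 (121 ± 8.67) and Zap70 (66.8 ± 2.92). Of these neighbours, the values of Cd3d and Cd247 overlapped and the others did not. At 4 h Cd247 was first with 341 ± 66.9 RPKM (n = 3 cultures), ahead of Lck with 277 ± 41.0 and Lat with 263 ± 37.4, and of the neighbours in that order only Cd3e and Zap70 were apart. At 12 h Lat led with 362 ± 21.6 RPKM, and Cd4, behind only Cd3g and Lck in resting cells, was last with 148 ± 22.4. At 24 h Zap70 was last again with 114 ± 15.5 RPKM, and every pair of neighbours overlapped.

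Some of these genes differed between the 3 conditions. In these comparisons the 6 time points of a condition stood in for its replicates. They are a series of cultures of the same cell pool, so p-values and intervals do not cover the spread between animals. In a fit that allowed for the time point, 3 of the 9 genes differed between Th2 and Th0 cultures at an adjusted p under 0.05, against 29.6% of genes, and 0 by 2-fold, against 2.01%. Cd247 was lower in Th2 at all 6 times, with ratios of 0.442 (8 h) to 0.938 (24 h) and a log2 difference of -0.52 (95% interval -0.75 to -0.30, adjusted p = 0.00219). Cd4 was lower in Th2 at all 6 times, with ratios of 0.596 (4 h) to 0.895 (16 h) and a difference of -0.37 (interval -0.53 to -0.20, adjusted p = 0.00329). Lcp2 was higher in Th2 at all 6 times, with ratios of 1.10 (16 h) to 1.98 (4 h) and a difference of 0.46 (interval 0.21 to 0.71, adjusted p = 0.00908). These 3 calls held in all 15 alternatives. Zap70 was higher in Th2 at 5 of 6 times, by 2.59-fold at 8 h (95% counting interval 2.5 to 2.68), with a log2 difference of 0.39 and an adjusted p of 0.058. That difference was 0.20 without the 8 h time point (adjusted p = 0.216), and it was called without the 24 h time point (0.51, adjusted p = 0.0191) and with median-of-ratios scaling (0.44, adjusted p = 0.0321). At an unadjusted p under 0.05 the count was 4 of 9.

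Between Th2 and Th1 cultures 2 of the 9 genes changed, against 12.2% of genes, and 0 by 2-fold, against 1.96%, with 2 at an unadjusted p under 0.05. Cd4 was lower in Th2 at all 6 times, with a log2 difference of -0.40 (interval -0.57 to -0.23, adjusted p = 0.00259), and Lcp2 was higher at all 6, with a difference of 0.55 (interval 0.31 to 0.80, adjusted p = 0.00433). Both calls held in all 15 alternatives. Between Th1 and Th0 cultures 1 gene changed, against 2.27% of genes, and 0 by 2-fold, against 0.494%, again with 1 at an unadjusted p under 0.05. This was Cd247, lower in Th1 at all 6 times with ratios of 0.524 (8 h) to 0.873 (16 h) and a difference of -0.46 (interval -0.68 to -0.23, adjusted p = 0.0315). The Cd247 call was lost without the 4, 12, 16 or 20 h time point, with adjusted p of 0.0816, 0.207, 0.0532 and 0.0745, and with no filter on low genes (0.0747) or median-of-ratios scaling (0.0619). For Cd3g, the gene with the narrowest intervals, the Th2 against Th0 difference was between -0.09 and 0.20 and the Th2 against Th1 difference between -0.11 and 0.18.

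The change of these differences per hour was tested as well. In limma it passed for 0 of the 9 genes between Th2 and Th0 (5.15% of genes, 4.05% towards lower and 1.1% towards higher in Th2), between Th2 and Th1 (1.09%) and between Th1 and Th0 (0.0279%), with 6, 3 and 0 genes at an unadjusted p under 0.05. Lck came closest between Th2 and Th0, at -0.032 log2 units per hour with an adjusted p of 0.0533, and its ratio of Th2 to Th0 was 1.33 at 4 h and 0.804 at 24 h. Without the 4 h time point the count between Th2 and Th0 was 4 genes, and without the 8 h time point the count between Th2 and Th1 was 1.

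**Figure D3:**
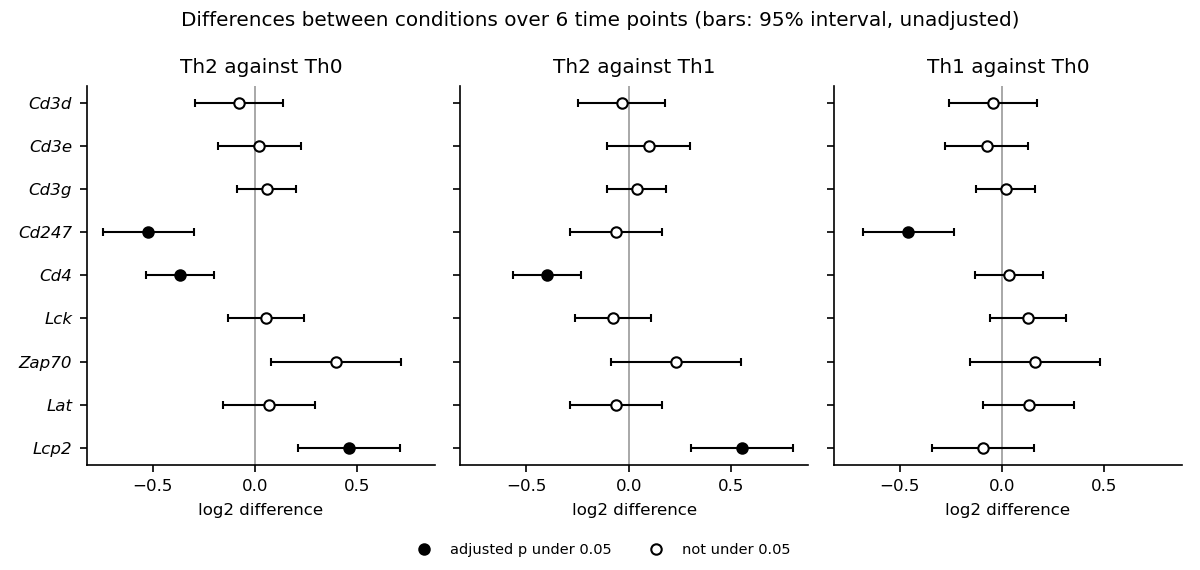
Log2 difference between conditions for each gene over the 6 time points, with unadjusted 95% intervals from limma and filled points where the adjusted p was under 0.05. Cd4 and Lcp2 stand off 0 on opposite sides in both comparisons with Th2, and Cd247 stands below 0 in both comparisons with Th0.

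Ratios between genes of 1 library do not depend on a factor that scales the whole library. Cd247 over the geometric mean of Cd3d, Cd3e and Cd3g was 0.767 and 0.822 in resting cells and 2.45, 1.81 and 1.52 in Th0, Th1 and Th2 cultures at 4 h. At 16 h the ratio was 0.981, 0.857 and 0.729. The zeta gene was therefore higher relative to its partners at 4 h in all 3 cultures. Over all times its ratio was above both resting libraries in 14 of 18 cultures and below both in 3. Those 3 were Th1 at 12 h (0.743) and Th2 at 12 h (0.743) and 16 h. Zap70 over Lck was 0.149 and 0.154 in resting cells and between 0.293 (Th1 at 4 h) and 0.745 (Th2 at 12 h) in cultures, above rest in 18 of 18. This had to follow, as Zap70 was above and Lck below both resting libraries in each culture. Lcp2 over Lat was 0.361 and 0.399 in resting cells and between 0.502 (Th1 at 20 h) and 1.12 (Th2 at 4 h) in cultures, again above rest in 18 of 18. Cd4 over Lck was 0.752 and 0.726 in resting cells and 0.331 in Th2 cultures at 8 h, the lowest of the cultures, and was below rest in 13 of 18. Within the CD3 locus, Cd3g over Cd3d was 2.11 and 2.07 in resting cells and below both in 16 of 18 cultures, and Cd3e over Cd3d ran from 0.546 (Th2 at 24 h) to 1.36 (Th2 at 8 h) around the resting 0.843 and 0.871.

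**Figure D4:**
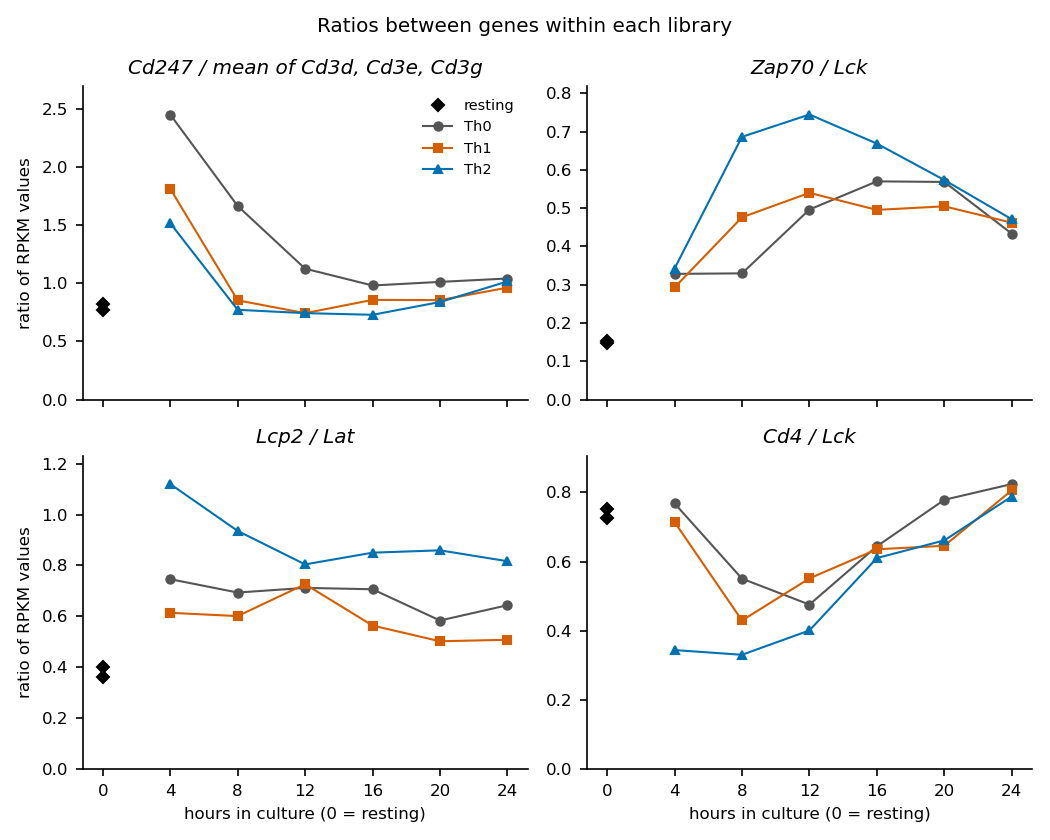
Ratios of RPKM values between genes of the same library (linear axes from 0) against hours in culture, with black diamonds for the 2 resting libraries and 1 point per library for Th0, Th1 and Th2. The ratios of Zap70 to Lck and of Lcp2 to Lat are above rest in all 18 cultures, and that of Cd247 to the other CD3 chains peaks at 2.45 in Th0 at 4 h. For Zap70 to Lck this follows from the levels of each gene.

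Among the 18 cultures, which share their time points, cell pool and scaling, the levels on the log2 scale formed no single pattern. Pearson's r was 0.83 between Zap70 and Lat, 0.81 between Zap70 and Cd3e, 0.81 between Lck and Lat and 0.66 between the kinases Lck and Zap70. It was -0.83 between Cd247 and Zap70 and -0.83 between Cd4 and Lcp2. The neighbours Cd3d and Cd3e had an r of -0.53, and the divergent pair Cd3g and Cd3d one of 0.38. Among 8469 genes averaging 5 RPKM or more, and over all 20 time-course libraries, the gene most like Cd247 was the integrin chain Itga6 (r = 0.95, and 0.96 without the resting libraries). Zap70 was most like Atf6b (0.98 and 0.97), Lcp2 most like the transcriptional repressor Gfi1 (0.96 and 0.96), Cd4 most like Zmynd8 (0.95 and 0.91), Lck most like the immediate-early gene Ier2 (0.90 and 0.84) and Lat most like the proton-sensing receptor Gpr65 (0.85 and 0.85). The genes most like the mean of Cd3d, Cd3e and Cd3g were Ddit4, Dnajb1, Sirpa, Spic and Ppp1r9b, with r of 0.88 to 0.91. Without the resting libraries these were 0.26 to 0.59, so the likeness rested on the step from rest. Spic and Sirpa are known from macrophages, whose marker sum was lower in cultures, as given above.

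Of 51 further genes of the pathway in 4 lists, 48 were in the table. The absent genes were all from the list of receptor chains and coreceptors. No level of the antigen-binding chains of the receptor is given here. Adaptors other than Lat and Lcp2 fell more often than they rose: 2 of 13 passed the 2-fold call downwards at 4 h, 6 at 12 h and 8 at 24 h, against 7.97%, 16.4% and 17.4% of all genes. Sit1, a transmembrane adaptor that holds signalling back, changed by -2.88 (SE 0.36) at 4 h and by -2.78 at 24 h, and Themis, best known from thymocyte selection, by -1.50 (SE 0.22) and -2.07. Sh2d2a, the gene of the T cell-specific adaptor TSAd, was the 1 adaptor that rose by 2-fold, by 2.01 at 4 h and 1.07 at 24 h, against 2.61% and 12.7% of genes called higher. The median log2 change of the adaptors at 24 h was -1.11, beside -0.04 over all genes. Of 12 other kinases and effectors, 2, 4 and 5 passed the 2-fold call downwards at 4, 12 and 24 h. At 4 and 12 h, 2 and 4 rose by less, where 11.5% and 28.9% of all genes rose by any size. Syk, the relative of Zap70 found mainly in B cells and myeloid cells, changed by -1.57 (SE 0.18) at 4 h and by -3.21 at 24 h, beside the falls of the B cell and macrophage sums. The Tec-family kinase Txk changed by -1.96 (SE 0.48) at 24 h.

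Negative regulators moved both ways. Of 16 tested, 2 rose and 1 fell by 2-fold at 4 h. The counts were 4 and 4 at 12 h and 1 and 3 at 24 h. Over all genes, 2.61% rose and 7.97% fell by that much at 4 h. The shares were 10.7% and 16.4% at 12 h, and 12.7% and 17.4% at 24 h. The ubiquitin ligase Cblb rose by 1.76 (SE 0.17) and the phosphatase Ptpn22 by 1.04 (SE 0.23) at 4 h, while the phosphatase Ptpn6, which is abundant in other blood cells too, fell by 1.28 on the log2 scale. The phosphatase Ubash3b rose by 2.39 (SE 0.35) at 12 h and was still called at 24 h (1.10). Pag1, an adaptor that holds the kinase CSK at the membrane, changed by -1.61 and the diacylglycerol kinase Dgka by -1.27 at 12 h. Of 7 other receptor chains and coreceptors, Cd5 (1.29, SE 0.27) and Cd6 (1.11, SE 0.23), which temper receptor signals, rose by 2-fold at 12 h. Between conditions, 2 of the 48 genes passed the 2-fold call: 1 in Th2 against Th1 and 2 in Th1 against Th0, where 1.96% and 0.494% of all genes did. In Th2 against Th0 0 of 48 passed it in limma, against 2.01%. An adjusted p under 0.05 was reached by 13 of the 48, against 29.6% of all genes. At an unadjusted p under 0.05 there were 16 of the 48, beside 4423 of all 10737 genes. The adaptor Trat1 was higher in Th2 than in Th1 by 1.51 (SE 0.32, adjusted p = 0.00405 in limma) and lower in Th1 than in Th0 by a log2 difference of -1.72 (adjusted p = 0.00752), and the Ras activator Rasgrp1 was lower in Th1 than in Th0 (-1.01, SE 0.17, adjusted p = 0.00301).

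After 4 h of actinomycin 8 of the 9 transcripts stood at 0.881 to 1.40 times their starting level, and Lcp2 at 0.57 times. Values are relative to all mapped reads of a library, so a slope of 0 means that a transcript was lost at the same pace as the rest, and each time had 1 library. At 0 h Cd3g (350 RPKM) and Cd3d (180) were above all 3 cultures of 16 h (271 to 290 and 140 to 166). Cd4 (163) and Lcp2 (171) were below them (173 to 199 and 186 to 263), and the other genes lay within their range. The macrophage sum was 54.7 to 77.4 RPKM in the 4 actinomycin libraries and 11.6 to 28.0 in the 16 h cultures. What set these libraries apart was not tested. Lcp2 was at 171, 165, 111 and 97.2 RPKM at 0, 1, 2 and 4 h, lower at each later time. Its slope was -0.22 log2 units per hour (SE 0.06), with an exact two-sided permutation p of 0.0833, the smallest that 4 time points allow, and it stood at the 7.76th percentile of 10571 genes. Cd4 was at 163, 188, 179 and 227 RPKM, a slope of 0.11 (SE 0.03, exact permutation p = 0.167) at the 79.2nd percentile. Cd3g was at 350, 420, 432 and 365 RPKM and Cd3d at 180, 213, 237 and 215, and both were higher at 1 and 2 h than at 0 h. Zap70 was at 168, 194, 140 and 174 RPKM. Cd247, Lck, Lat and Cd3e had slopes of -0.04, 0.01, -0.01 and -0.03 with exact permutation p of 0.583 to 0.833. Without the 4 h library the slope was 0.11 for Cd247 and 0.079 for Lat, of opposite sign, and it was 0.20 for Cd3d (0.056 over all 4 libraries), 0.15 for Cd3g (0.0020), 0.069 for Cd4, -0.078 for Cd3e, -0.13 for Zap70 (-0.011) and -0.31 for Lcp2. None of the 9 genes was 2-fold lower at 4 h than at 0 h, against 5.43% of all genes, and 3 of the 9 had slopes above the median of all genes (0.0022). For the 4 genes with recovered reads, the ratio of 4 h to 0 h was 1.19 for Cd3d (95% counting interval 1.15 to 1.24), 1.04 for Zap70 (1.01 to 1.07), 0.966 for Cd3e (0.928 to 1.01) and 0.963 for Lat (0.934 to 0.993). These intervals cover counting error between single libraries only, and Zap70 ranged from 140 to 194 RPKM over the 4 libraries.

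**Figure D5:**
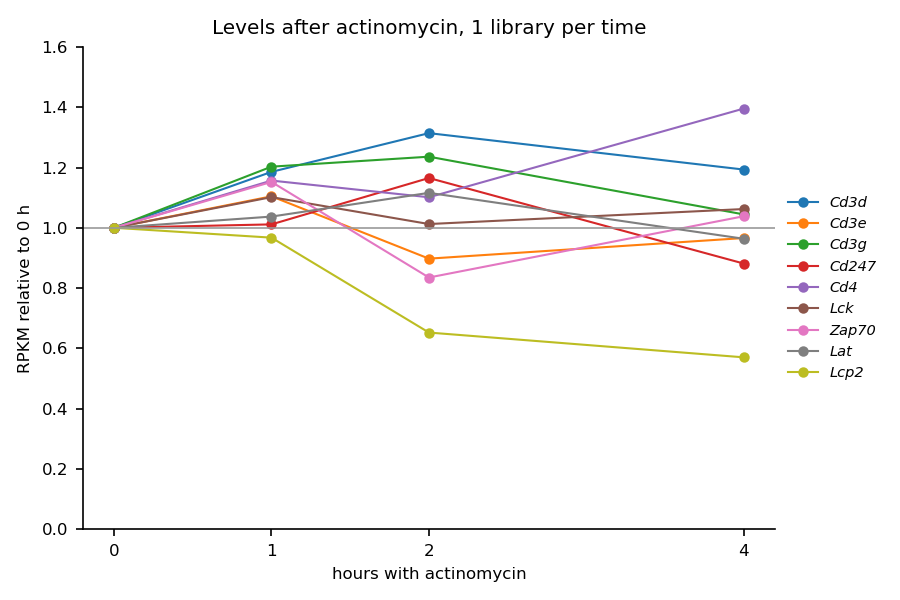
RPKM of each gene relative to its own value at 0 h (linear axis from 0) against hours with actinomycin, 1 library per time and 1 line per gene. Lcp2 declines to 0.57 at 4 h, Cd4 reaches 1.40, and the other genes end between 0.881 and 1.19.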

How the data were processed

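RNA was sequenced from the 24 libraries on an Illumina instrument, and the authors deposited 1 table of RPKM values. Of its 22010 entries, the 1 that lacked a name was left out. The submitters' processing notes name BWA and GRCm38, while the counting program and annotation were not given in the sources used here. The labels describe CD4+ cells purified by negative selection, whereas the methods of the study describe naive cells. RPKM values were tested as log2(RPKM + 0.5) with limma 3.58.1 in R 4.3.3 for genes averaging 1 RPKM or more. An intensity trend was used, and p was adjusted over all these genes by the Benjamini-Hochberg method. "Rose", "fell" and "changed" stand for an adjusted p under 0.05, and a 2-fold call adds a change of at least 2-fold, the limit of the study's microarray analysis. Fold changes are on the log2(RPKM + 0.5) scale, which understates the change of low genes.

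Time points were each set against rest in 1 fit of 20 libraries, conditions were compared in a fit of the 18 cultures that held time constant, and 24 h was set against 4 h with the culture as a block. Since each culture and time was sequenced once, the 3 conditions of a time stand in for replicates. In the comparisons of conditions, the time points of a condition do so, and they are not biological replicates. A change of difference per hour was called on its size over the 20 h from 4 to 24 h. Slopes after actinomycin are least-squares slopes with an exact permutation of the 4 times. Mapped reads were recovered from the steps of single-transcript genes, and a read number was taken as whole within 0.02 in all libraries. The limma step was tested on simulated data with independent noise in each library. That test does not cover dependence between cultures of the same cell pool. Python 3.11.15, numpy 2.4.6, pandas 2.3.3, scipy 1.17.1 and matplotlib 3.10.9 were used. The member genes, pathway lists and marker lists were chosen with earlier results of these data known. Named in the text were all 9 genes, for each further list and comparison at most the 2 largest rises and 2 largest falls past the 2-fold call, the 5 genes most like the mean of the CD3 locus and the 1 most like each other gene. The result of 1 further gene that this rule names is not reported here. Gene positions are from GENCODE M21 and promoters from RefSeq. As alternatives, the pseudocount was set to 0.1 or 1, the filter was dropped or raised to 5 RPKM, and values were rescaled by median-of-ratios, by quantiles or without the haemoglobin genes. The trend was dropped, the fit was limited to the libraries compared, and each resting library, condition or time point was left out in turn.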

Additional observations from a re-analysis of the deposited data

How the results depend on the processing

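For 65 stated changes of single genes, 829 of 913 alternative values had the main value's sign and side of the threshold, and 53 were called no longer, 20 newly called and 11 opposite in sign. All Cd4 and Cd3g falls at 4, 8, 12 and 24 h held in each alternative. Quantile normalization moved the median change of all genes at 24 h from -0.04 to 0.13. Of values not called, Cd247 at 8 h became 0.033 with median-of-ratios scaling and ran from -0.43 to 0.15 with 1 library or condition left out. Lat at 16 h became -0.10 with quantile normalization and -0.064 without the haemoglobin genes, and ran from -0.00059 to 0.066 with 1 left out, and at 20 h it became -0.15 and -0.088 and ran from -0.058 to 0.13. Cd3g between Th2 and Th1 ran from -0.016 to 0.090 with 1 time point left out. With a filter of 5 RPKM, 646 and 1334 genes passed the 2-fold call at 4 and 8 h, of fewer genes tested. Of the 9 genes, 3 to 6 changed at 4 h with 1 library or condition left out, and 1 to 2 from 4 to 24 h, or 4 with quantile normalization. Between Th1 and Th0 0 changed with no filter or with median-of-ratios scaling and 0 to 1 with 1 time point left out. The differences per hour depended most on single times: between Th2 and Th0, 82 to 1978 genes were called with 1 time left out (422 in all, 202 with no filter) and 0 to 4 of the 9, with 1 at the filter of 5 RPKM and 3 when scaled by median-of-ratios. For Th2 against Th1 these were 22 to 278 (102 in all, 55 with no filter) and 0 to 1, and between Th1 and Th0 0 to 45 (3 in all, 6 with a pseudocount of 0.1, 8 with quantile normalization, 1 with median-of-ratios scaling or no trend). The median slope of the 9 genes after actinomycin, -0.011, ran from -0.045 to 0.069 with 1 library left out, the latter without that of 4 h. The cause was not tested. Reads could be recovered for 4 of the 9 genes, which had 2790 or more in each library. What limits the comparisons is that each culture and time has 1 library.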

Other observations

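Other genes of the pathway changed within the cultures from 4 to 24 h. Skap1 and Fyb, adaptor partners that link receptor signals to integrins, fell by 1.98 (SE 0.12) and 1.44 (SE 0.15) on the log2 scale. The Tec-family kinases Txk and Tec fell by 2.17 (SE 0.25) and 1.66 (SE 0.17). Of 13 adaptors 8 fell at an adjusted p under 0.05 in limma, and of 12 kinases and effectors 10 fell and 1 rose, where 34.5% of all genes fell and 35.3% rose. The median log2 change was -0.76 for the adaptors and -0.65 for the kinases and effectors, beside 0.00071 over all genes. The adhesion receptor Cd2 fell by 1.01 (SE 0.17), and Cd6 rose by 1.06 (SE 0.19).

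The difference between Th2 and Th0 cultures changed with time, at an adjusted p under 0.05 in limma, for 3 of 7 further receptor chains and coreceptors and 3 of 16 negative regulators, all towards lower in Th2, where 4.05% of all genes passed in that direction and 1.1% in the other. The Th2 minus Th0 difference changed by -0.065 log2 units per hour for Cd5 (SE 0.016, adjusted p = 0.0311), by -0.056 for Cd2 (SE 0.0092, adjusted p = 0.00546) and by -0.054 for Cd6 (SE 0.013, adjusted p = 0.0335). Among the negative regulators it changed by -0.100 per hour for Ubash3b (SE 0.017, adjusted p = 0.00568), by -0.051 for Ptpn6 (adjusted p = 0.0124) and by -0.049 for Ptpn22 (adjusted p = 0.035). Cd6 and Ptpn22 lie outside the rule for named genes in this comparison and were chosen after their values were seen. Over all genes, the count whose difference also changed by at least 2-fold over 20 h went from 422 to 1978 without the 4 h time point and to 152 without the 24 h time point.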
